A study of Rattus norvegicus with 12 samples.

Results

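This account compares the rostral ventrolateral medulla (RVLM) of 12-month-old rats with that of 3-month-old rats and describes, across all named genes on the array, what differed by midlife. The comparison used 8 of the 12 arrays of the series, 4 per age, from 3 animals per age. The remaining 4 arrays came from 3 rats aged 24 months (413 g, spread 20 g), whose levels are given for only some of the genes and gene lists described here. All animals were male F344 rats, an inbred strain used in ageing research, untreated apart from deep isoflurane anaesthesia before decapitation. The 3-month group averaged 301 g in body weight, with a spread of 20 g as the submitters gave it, and the 12-month group averaged 423 g with a spread of 18 g, so age and body weight cannot be told apart. RNA from micropunches of the RVLM was labelled with Cy3 and hybridised to 1-colour Agilent whole rat genome 4x44K arrays. The third animal of each age was hybridised to a pair of arrays, which were averaged so that the animal was the unit.

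The RVLM lies in the ventral brainstem and holds the glutamatergic and adrenergic neurons that drive sympathetic vasomotor tone and so set arterial pressure. A punch of it also holds oligodendrocytes and myelinated fibres of passage, astrocytes, vessels with their fibroblasts, and microglia, the resident macrophages of the brain, which survey tissue through receptors such as Trem2 and clear complement-tagged debris. A punch is bulk tissue: for every gene below, fewer cells of a type and less RNA per cell cannot be told apart.

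Levels are given as log2 of the processed signal minus the 75th percentile of the same array, so a level of 0 is the 75th percentile of that array and a difference of 1 is a doubling. They are comparable between animals for one probe and not between genes. Of 41012 probes, 29797 passed the detection filter, which required a signal well above background on each array of 1 or more ages, giving 25443 items: 14149 named genes, each read by its brightest kept probe, and unnamed probes. Between 73.45% and 77.09% of spots on an array were well above background. The median difference between ages over all 25443 items was 0.0004. Both arrays of the third animal differed by a median of 0.061 (3 months) and 0.060 (12 months) on the log2 scale, whereas animals of the same age differed by 0.130 to 0.151.

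The labelled region was checked by its defining genes. Th, the rate-limiting enzyme of catecholamine synthesis, Dbh, which makes noradrenaline, and Slc17a6, the vesicular glutamate transporter of brainstem neurons, were well above background on all 12 arrays. Pnmt, the adrenaline-synthesising enzyme, was not analysed here. Of 24 genes listed for hindbrain identity 18 were kept, against 6 of 15 forebrain transcription factors. Th, Dbh and Slc17a6 did not pass the test between ages. Th stood at 1.39, 1.44 and 1.79 at 3 months and at 1.59, 1.57 and 1.14 at 12 months, so the groups overlapped. Dbh was 0.87, 1.13 and 0.51 at 3 months against 0.47, 0.31 and 0.47 at 12 months, a difference of -0.42 ± 0.20 (SE; adjusted p = 0.839, limma). Slc17a6 differed by -0.02 ± 0.17.

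By 12 months, 48 items had changed (limma's moderated test with Benjamini-Hochberg adjustment over all 25443 items, threshold 0.05), which is 0.189% of those tested. Higher at 12 months were 38 items (0.149%) and lower were 10 (0.0393%). The higher items were 22 named genes, 3 predicted loci and 13 unnamed probes. The lower ones were 8 named genes and 2 unnamed probes. Some unnamed probes that rose lie near named genes that rose, so items need not be separate loci. Besides those near Zbtb16 (below), they lie at chr8:112862986 and chr8:112859106, near Sema3b (chr8:112864736), and at chr4:120207662, near Cml3 (chr4:120209196; starts in the rn3 build). Whether they read the same transcripts was not tested. Fold sizes ran from 1.43 to 4.54 for the rises and from 1.47 to 2.73 for the falls, and for all 48 the 3 animals of 12 months lay wholly outside the range of the 3 animals of 3 months. Passing this test with 3 animals per age nearly requires such separation, so for called items it adds no evidence, here or below. At an unadjusted p of 0.05, 842 items were higher (3.31%) and 775 lower (3.05%). Groups did not overlap for 1501 higher items (5.9%) and 1373 lower ones (5.4%), and these shares are the background for the counts of gene lists below.

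**Figure D1:**
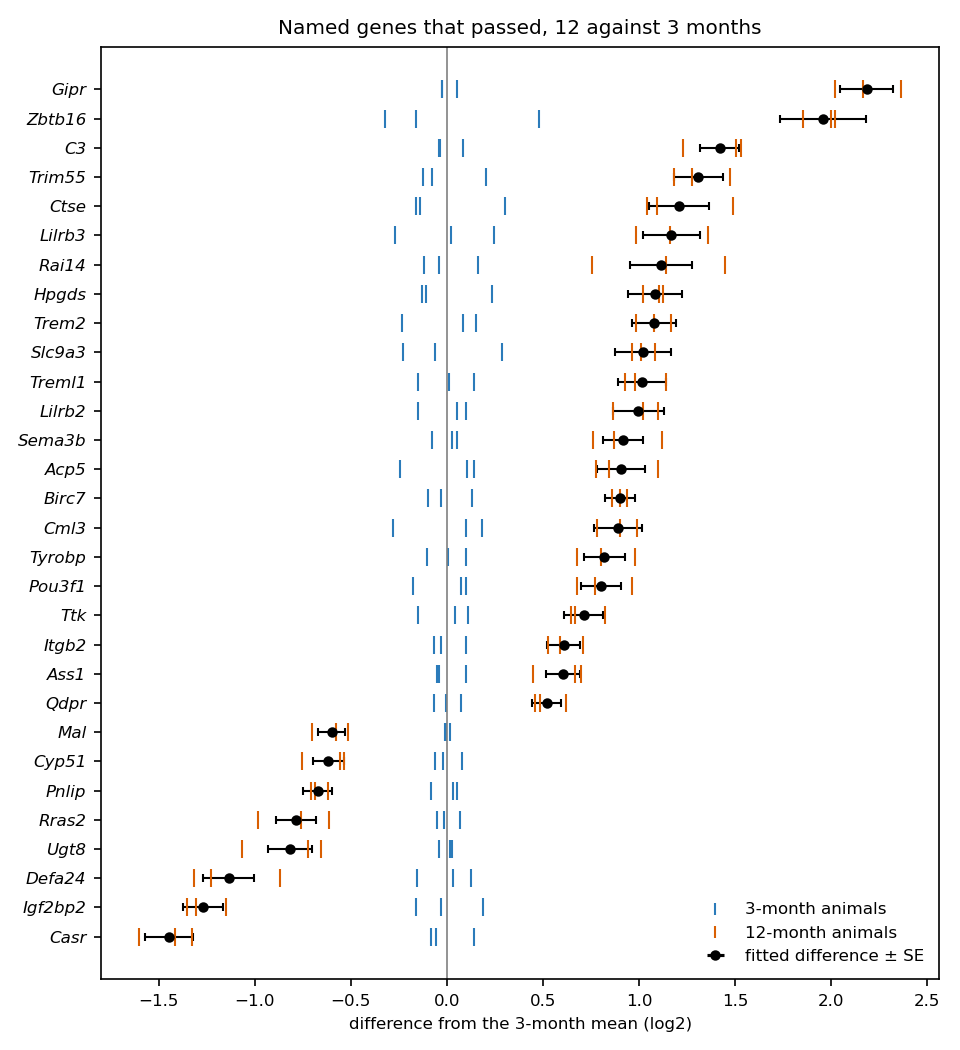
Differences between 12 and 3 months for the 30 named genes that passed the test, on a log2 scale relative to the 3-month mean of each gene. Black points are fitted differences with their standard errors, blue ticks the 3 animals of 3 months and orange ticks the 3 animals of 12 months; for every gene the blue and orange ticks are separate, from Gipr (2.18) to Casr (-1.45).

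The calls depended on how the spread was estimated. The 24-month animals entered the fit to share the estimate of spread, besides their part in the detection filter and the choice of probe. With the 6 compared animals alone, on the same items, 2 rises (Gipr and C3) and 1 fall (Casr) passed. All 48 items had an unadjusted p of 0.000524 or less in that limma fit. They were selected in a fit holding the same 6 animals, so these small p-values are no independent support. Arrays of both ages shared slides unevenly: slide 1 held 3 arrays of 3 months and 1 of 12 months, slide 2 held 2 of 12 months and none of 3 months, and slide 3 held 1 of each. With slide as a block, in a fit to the 12 single arrays with animal as a random effect, 23 items were higher and 5 lower. Among them were 22 and 5 of the items called in the main fit. The same fit to single arrays without slide called 60 and 17. Leaving out animals cost more calls: 22 of the 48 calls were lost whichever of the 9 animals was left out, 24 were lost without some animals, and Gipr and C3 were called without any one of them. Named genes that lost their call with slide as a block were Lilrb3, Hpgds, Slc9a3, Lilrb2, Acp5, Qdpr, Ttk, Cml3, Casr, Defa24, Ugt8 and Rras2. With normexp background correction the calls of Trim55, Lilrb3, Rai14, Hpgds, Slc9a3, Lilrb2, Acp5, Itgb2, Ttk, Pou3f1, Ass1, Casr, Defa24, Ugt8, Rras2 and Cyp51 were lost.

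Gipr, the receptor for the incretin hormone GIP, showed the largest rise. Its probe (chr1:78593703-78593762 in the rn3 build that the array files use) read -2.43, -2.36 and -2.44 in the 3 young animals and -0.05, -0.39 and -0.24 in the 3 animals of 12 months. The young animals were close together (SD 0.04) and every 12-month animal stood above them. The rise was 2.18 ± 0.14 (SE), 4.54-fold (adjusted p = 0.00292, limma). At 24 months the mean was 0.05 ± 0.26 (SD, n = 3), a further 0.28 that did not pass (adjusted p = 0.508). Leaving out each animal in turn gave adjusted p-values of at most 0.0414.

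C3, the central complement component whose fragments tag surfaces for removal, rose 2.67-fold. Its levels were 1.51, 1.38 and 1.39 at 3 months and 2.65, 2.93 and 2.95 at 12 months, with no overlap. The difference was 1.42 ± 0.10 (adjusted p = 0.00467, limma), 1.23 within slide 1 and 1.54 within slide 3. The mean at 24 months, 3.14 ± 0.12 (SD, n = 3), was 0.30 above that at 12 months (adjusted p = 0.393). Of 23 complement genes tested, 2 rose (C3 and Itgb2, a subunit of the complement receptor integrins), none fell, and 6 were higher and 1 lower at the unadjusted threshold. The median difference of the list was 0.22, against 0.0004 for all items, and it was 0.15 without 12-month animal 2 and 0.34 without 3-month animal 1.

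Microglial markers were mostly higher at 12 months, and few passed singly. Of 26 microglial markers tested, 3 rose (Trem2, Tyrobp and Itgb2), none fell and 23 did not pass, while 24 had a positive difference. At the unadjusted threshold 19 of 26 were higher and 1 was lower, and for 19 of 26 the 12-month animals lay above the young range. The median difference was 0.41, with animals of 3 months between -0.09 and 0.10, those of 12 months between 0.38 and 0.53, and those of 24 months between 0.67 and 0.94. It was 0.40 with slide as a block, 0.40 within slide 1 and 0.35 within slide 3.

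Trem2, a lipid-sensing receptor of microglia (probe at chr9:8059065-8059124, rn3), read 1.55, 1.17 and 1.49 at 3 months and 2.39, 2.57 and 2.48 at 12 months. Every 12-month animal stood above every young one, and the rise was 1.08 ± 0.11 (adjusted p = 0.0214, limma). At 24 months it was 3.21 ± 0.12 (SD, n = 3). Tyrobp, the adaptor through which Trem2 signals, rose by 0.82 ± 0.11 from 2.57, 2.37 and 2.47 to 3.15, 3.45 and 3.27 (adjusted p = 0.0366). A second Tyrobp probe gave 0.68 ± 0.15 and did not pass on its own (adjusted p = 0.236 over all kept probes). Itgb2, the shared beta chain of the leukocyte integrins, rose by 0.61 ± 0.09 (adjusted p = 0.0468). Leaving out 12-month animal 2 brought the adjusted p of Trem2 to 0.101, the highest of its leave-one-out values, and 5 of the 9 omissions ended its call. The calls of Tyrobp and Itgb2 ended whichever animal was left out, with adjusted p-values of up to 0.162 and 0.214, in both cases without 3-month animal 3.

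Other microglial genes did not pass. The inhibitory Fc receptor Fcgr2b read -0.84, -1.34 and -0.85 at 3 months and -0.09, 0.23 and -0.13 at 12 months, a difference of 1.02 ± 0.15 (adjusted p = 0.0524). P2ry12, the ADP receptor that marks homeostatic microglia, differed by 0.70 ± 0.11 (adjusted p = 0.0672), and the macrophage marker Adgre1 by 0.74 ± 0.12 (adjusted p = 0.0725). The complement initiator C1qa differed by 0.73 ± 0.19 (adjusted p = 0.317), with the 12-month animals spread by an SD of 0.44, and its second probe gave 0.57 ± 0.12. In all 4 of these genes every 12-month animal stood above every young one. The 2 microglial markers with a negative difference were Itgam and Olfml3. Itgam differed by -0.25 ± 0.29 (adjusted p = 0.994, limma), with overlapping groups. Olfml3 read -4.04, -4.55 and -4.73 at 3 months and -4.80, -5.05 and -4.94 at 12 months, without overlap. Of the 20 genes of the list drawn from disease-associated microglia, none passed, 3 were higher and 1 lower at the unadjusted threshold, and the median difference was 0.12. Its smallest p-values belonged to the lysosomal genes Ctsz (0.58 ± 0.12, adjusted p = 0.163) and Cd68 (0.65 ± 0.14, adjusted p = 0.196).

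**Figure D2:**
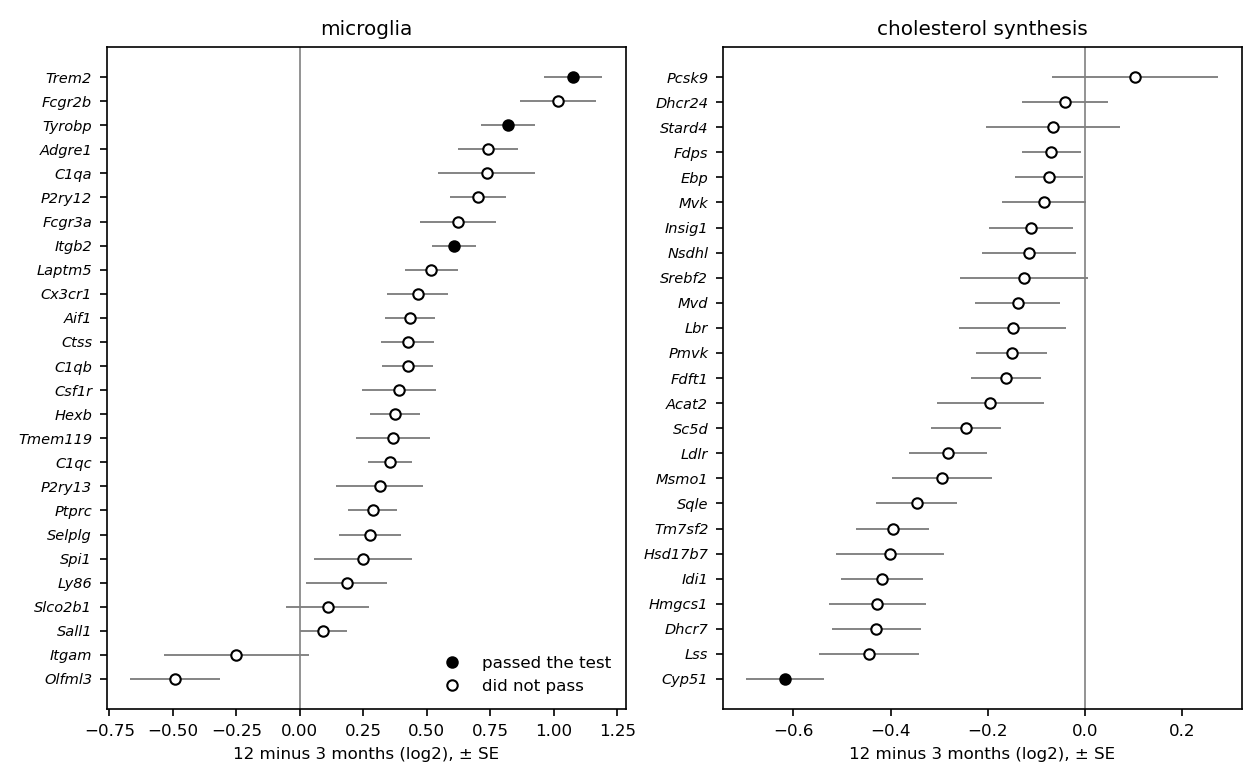
Fitted 12-minus-3-month differences (log2) with standard errors for genes of the microglial list (left) and the cholesterol synthesis list (right), filled where the gene passed the test. Of the microglial genes 24 of 26 lie to the right of 0, and of the sterol genes shown all but 1 lie to the left of it.

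A pair of receptors of the leukocyte immunoglobulin-like family rose. Lilrb3, an inhibitory receptor of myeloid cells, rose from -4.48, -5.00 and -4.71 to -3.57, -3.37 and -3.75, with no overlap (1.17 ± 0.15, adjusted p = 0.0331, limma). Lilrb2, which the array lists as Pirb, rose by 1.00 ± 0.13 (adjusted p = 0.0375), but only 3 of 4 young arrays read it above background. With normexp background correction these differences were 0.40 and 0.15 and did not pass. These genes belong to a cluster of near-identical copies, so probes may read more than one of them. Of 11 Fc and paired immunoglobulin-like receptors tested, 1 rose (Lilrb3), none fell and 6 were higher at the unadjusted threshold, with a median of 0.43, or 0.13 with normexp correction. It was 0.27 without 3-month animal 3. The list does not hold Lilrb2 under that name, so its rise is not in this count, and its member Pirb is read by another probe. Treml1, a neighbour of Trem2 on chromosome 9, rose by 1.02 ± 0.13 (adjusted p = 0.0328), whereas its second kept probe differed by 0.31 ± 0.10 (adjusted p = 0.578 over all kept probes), so its probes disagree.

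Ctse, Acp5 and Hpgds, enzymes that myeloid cells are known to express, rose. Ctse, the aspartic protease cathepsin E, went from -2.17, -2.20 and -1.73 to -0.94, -0.55 and -0.99 (1.21 ± 0.16, adjusted p = 0.0348). Acp5, tartrate-resistant acid phosphatase of osteoclasts and macrophages, rose by 0.91 ± 0.13 (adjusted p = 0.0433). Hpgds, the haematopoietic prostaglandin D synthase, was above background on 1 of 4 young arrays and on all 4 arrays of 12 months. Its levels were -5.98, -6.00 and -5.64 against -4.85, -4.75 and -4.77, a rise of 1.08 ± 0.14 (adjusted p = 0.0348). Since 3 of 4 young arrays did not read it above background, the fold is a bound, at least 2.11-fold on this scale. With slide as a block the difference in Hpgds was 0.87 (adjusted p = 0.201), and with normexp correction it was 0.17. It was 0.61 within slide 3, and all of these log2 differences lay under that bound. Of 18 prostaglandin and leukotriene genes tested, Hpgds alone passed, 6 were higher and 2 lower at the unadjusted threshold, and the median was 0.08 (0.001 without 3-month animal 3 and 0.33 without 3-month animal 1). The prostaglandin E receptor Ptger1 differed by 0.75 ± 0.11 (adjusted p = 0.0555), and by 0.17 with normexp correction.

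No antigen presentation gene passed by 12 months. No gene of 24 tested for MHC class I, peptide loading and the immunoproteasome passed; 9 were higher and none lower at the unadjusted threshold, and the median difference was 0.18. The smallest p-values were those of RT1-M3-1 (0.31 ± 0.09, adjusted p = 0.374) and the immunoproteasome subunit Psmb8 (0.39 ± 0.11, adjusted p = 0.432). For MHC class II and antigen presentation, 10 genes were tested, none passed and the median was 0.16, with the young animals between -0.34 and 0.37 and the 12-month animals between 0.07 and 0.18, inside the young range. That median was -0.09 without 3-month animal 3 and 0.42 without 3-month animal 1, and 0.04 with normexp correction. The same list stood at 1.18 to 2.08 in the 24-month animals. The costimulatory gene Cd86 was not well above background on any young array and above it on 3 of 4 arrays of 12 months, so the filter kept it through the 24-month arrays alone. It was at least 1.41-fold higher at 12 months, a bound set against the lowest signals read above background on the young arrays, and it did not pass (adjusted p = 0.0623). On the log2 scale its difference was 0.08 with normexp correction and 0.20 within slide 3, both under that bound. Cathepsin S (Ctss), which processes the class II invariant chain, differed by 0.42 ± 0.10 (adjusted p = 0.276).

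No gene of the other immune lists described here passed. Among 10 lymphocyte genes, none passed and all 10 differences were positive (median 0.29, from 0.16 without 3-month animal 2 to 0.42 without 3-month animal 1, and 0.01 with normexp correction). Only 10 of the 23 genes on that list were kept, and Cd4 was kept through the 24-month arrays alone. The part this filter played in the signs and the median was not tested. The T cell glycoprotein Cd6 differed by 0.79 ± 0.14 (adjusted p = 0.108), and Cd4, which rat microglia and macrophages also express, was not well above background on any young array and was at least 1.72-fold higher at 12 months (adjusted p = 0.206), read on 3 of 4 arrays. With normexp correction the Cd4 difference was 0.10 on the log2 scale, under that bound. Of 39 interferon-stimulated genes, none passed, 7 were higher and 1 lower at the unadjusted threshold, and the median was 0.12 (0.07 without 3-month animal 2, 0.21 without 3-month animal 1 and 0.05 with normexp correction). Ifi44l had the smallest p (0.51 ± 0.14, adjusted p = 0.392, and 0.10 with normexp correction), followed by Lgals3bp (0.36 ± 0.12, adjusted p = 0.561). Of 29 cytokine and chemokine receptors none passed, with a median of 0.11 (0.04 without 3-month animal 2 and 0.05 with normexp correction). The interleukin-6 receptor Il6r differed by 0.32 ± 0.08 (adjusted p = 0.262) and the scavenging receptor Ackr3 by -0.46 ± 0.11 (adjusted p = 0.283). Perivascular macrophage, monocyte and neutrophil markers (9 tested, none passed) had a median of 0.20, which was 0.13 without 3-month animal 3 and 0.03 with normexp correction. Haemoglobin and other red cell genes (5 tested, none passed) had a median of -0.15, which was -0.28 without 3-month animal 2, 0.03 without 3-month animal 1 and -0.09 with normexp correction. The part of blood cells in the punch in these results was not tested.

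**Figure D3:**
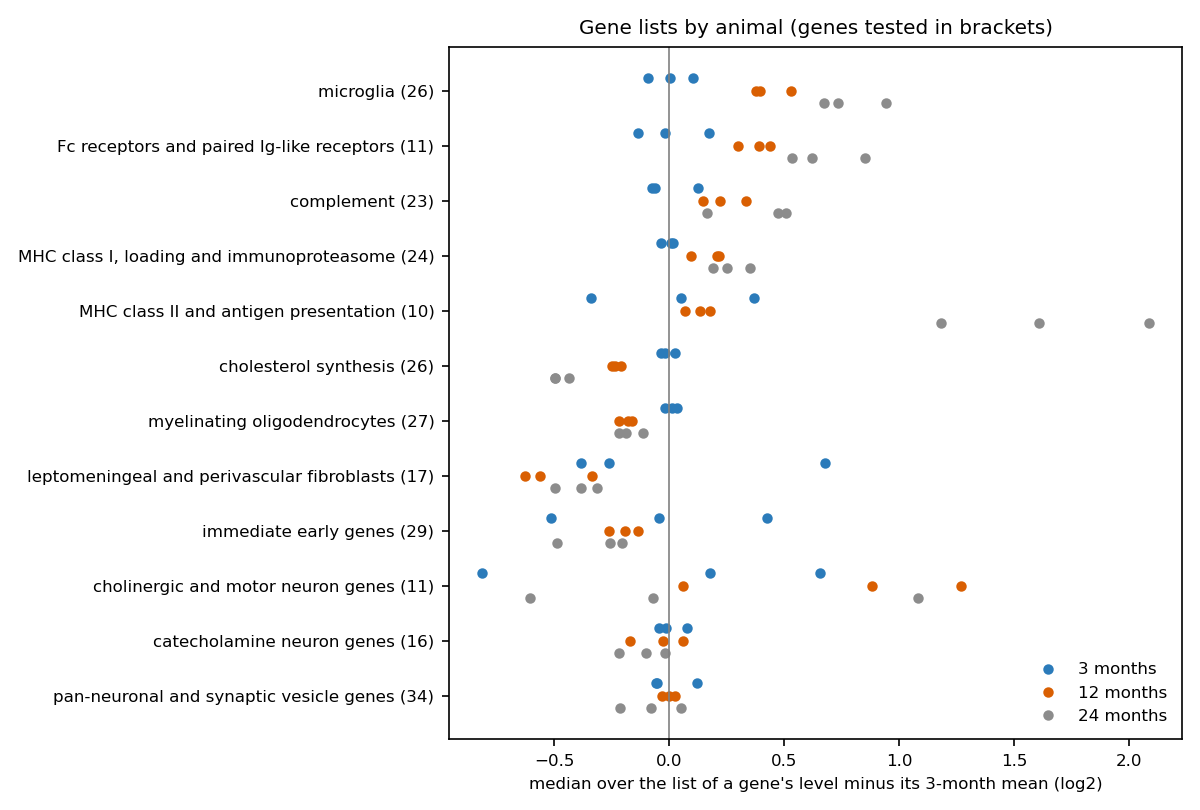
Each point is 1 animal: the median, over the tested genes of a list, of the gene's level minus its 3-month mean (log2). The 12-month animals lie above all young animals for microglial genes (0.38 to 0.53) and below them for cholesterol synthesis and myelin genes, while the class II points of 12 months lie within the young range and those of 24 months between 1.18 and 2.08.

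Sterol synthesis genes were mostly lower at 12 months, and Cyp51 passed. Cyp51, the lanosterol demethylase of cholesterol synthesis (probe at chr4:26775187-26775246, rn3), fell from 3.55, 3.45 and 3.40 to 2.71, 2.91 and 2.93, without overlap. The fall was -0.62 ± 0.08, 1.53-fold (adjusted p = 0.0348, limma), and the level at 24 months was 2.47 ± 0.01 (SD, n = 3). Idi1, an isoprenoid isomerase, differed by -0.42 ± 0.08 (adjusted p = 0.17), and Hmgcs1, a synthase of an early step, by -0.43 ± 0.10 (adjusted p = 0.241). Their second probes gave -0.41 ± 0.08 for Idi1 and -0.50 ± 0.07 for Hmgcs1. Neither passed (adjusted p = 0.144 and 0.0508 over all kept probes, limma).

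Of 26 cholesterol synthesis genes tested, 1 fell, none rose, 12 were lower and none higher at the unadjusted threshold, and 25 had a negative difference. For 15 of 26 the 12-month animals lay below the young range. The median difference of the list was -0.18, and the list's median by animal was -0.25, -0.24 and -0.21 at 12 months against 0.02, -0.02 and -0.04 at 3 months. It was -0.24 within slide 1 and -0.20 within slide 3, and the 24-month animals stood between -0.50 and -0.44. The Cyp51 call was lost whichever animal was left out, with adjusted p-values of up to 0.135 (without 3-month animal 3).

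Since these sterol genes and the microglial genes lay on opposite sides of 0, the sequence before their transcription starts is shown for an example pair of each, taken from the RefSeq promoter table (GRCr8 build), 150 bases ending at the base before the start. In the first pair capitals mark CCAAT or its reverse complement, the box bound by NF-Y, and in the second pair GAGGAA or its reverse complement, a core that ETS factors such as PU.1 of myeloid cells bind. Hmgcs1 lies on the plus strand at chr2:53382154-53382303, Idi1 on the minus strand at chr17:66547525-66547674, Trem2 on the minus strand at chr9:20151780-20151929 and Ctss on the plus strand at chr2:185775246-185775395.
Hmgcs1: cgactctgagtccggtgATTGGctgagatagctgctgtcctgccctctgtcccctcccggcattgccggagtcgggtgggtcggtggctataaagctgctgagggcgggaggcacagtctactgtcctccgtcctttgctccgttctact
Idi1: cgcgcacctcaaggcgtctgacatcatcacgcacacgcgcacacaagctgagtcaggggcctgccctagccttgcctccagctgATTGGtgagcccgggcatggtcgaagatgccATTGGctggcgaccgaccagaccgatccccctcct
Trem2: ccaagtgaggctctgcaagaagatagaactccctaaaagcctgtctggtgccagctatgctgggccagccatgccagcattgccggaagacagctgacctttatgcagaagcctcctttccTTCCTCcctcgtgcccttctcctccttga
Ctss: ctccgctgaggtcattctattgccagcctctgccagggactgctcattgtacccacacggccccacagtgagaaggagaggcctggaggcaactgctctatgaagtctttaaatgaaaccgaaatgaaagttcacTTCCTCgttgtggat

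Over the 250 bases before the start, CCAAT on either strand stood in 15 of the 18 sterol promoters that the table holds (83.3%), in 4 of 14 microglial ones (28.6%) and in 34.3% of all 27457 promoters. GAGGAA on either strand stood in 9 of 14 microglial promoters (64.3%), in 5 of 18 sterol ones (27.8%) and in 23.2% of all promoters. These motifs were chosen with the results known, neither overlaps the other in its letters, and a match describes the letters only.

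No fatty acid gene passed. Of 18 genes of fatty acid synthesis and desaturation none passed, 4 were lower at the unadjusted threshold and the median was -0.10. Scd, the stearoyl-CoA desaturase, read 0.73, 0.50 and 0.55 against 0.00, -0.08 and 0.16 (-0.57 ± 0.09, adjusted p = 0.0827), and the lipogenic regulator Thrsp differed by -0.51 ± 0.11 (adjusted p = 0.224). Outside the lists, the probe for Pnlip, pancreatic lipase, fell by 0.67 on the log2 scale (SE 0.08, adjusted p = 0.0239), from -0.80, -0.77 and -0.91 to -1.52, -1.45 and -1.53.

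Among myelin genes Mal and Ugt8 fell. Mal, a proteolipid of compact myelin, was 3.18, 3.20 and 3.17 at 3 months and 2.60, 2.67 and 2.48 at 12 months, so the groups did not overlap (-0.60 ± 0.07, adjusted p = 0.0242, limma). Ugt8, which makes the galactolipids of myelin, read 0.08, 0.07 and 0.01 against -0.60, -0.67 and -1.01 (-0.82 ± 0.12, adjusted p = 0.0468). Ugt8 did not pass with slide as a block (-1.12, adjusted p = 0.326), and its difference was -0.65 within slide 1 and -1.46 within slide 3. Qdpr, a dihydropteridine reductase that oligodendrocytes express strongly and that also regenerates the cofactor of Th, moved the other way, from 7.29, 7.36 and 7.43 to 7.82, 7.98 and 7.84 (0.52 ± 0.08, adjusted p = 0.0481).

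Of 27 genes of myelinating oligodendrocytes tested, 2 fell (Mal and Ugt8), 1 rose (Qdpr) and 24 did not pass. At the unadjusted threshold 12 were lower and 3 higher, and the median was -0.24. By animal the median was -0.16, -0.22 and -0.18 at 12 months against 0.01, -0.02 and 0.03 at 3 months. At 24 months the list stood between -0.22 and -0.12, and Mal at 2.66 ± 0.03 (SD, n = 3). Of 19 genes of precursors and newly formed oligodendrocytes none passed, 4 were lower at the unadjusted threshold and the median was -0.11 (-0.06 without 3-month animal 1). Enpp6, a marker of newly formed oligodendrocytes, differed by -0.34 ± 0.09 (adjusted p = 0.339) and the lineage factor Olig2 by -0.47 ± 0.14 (adjusted p = 0.423). The shares of white and grey matter in the punches were not tested.

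Zbtb16, a zinc finger repressor that glucocorticoids induce in many tissues, showed a pattern unlike the other large rises. It rose 3.88-fold at 12 months and stood 0.25 above the 3-month mean at 24 months (adjusted p = 0.64). Its levels were -3.42, -2.78 and -3.58 at 3 months, -1.40, -1.26 and -1.24 at 12 months, and -2.70, -2.96 and -3.36 at 24 months, so only the 12-month animals stood apart. The difference between 12 and 3 months was 1.96 ± 0.22 (adjusted p = 0.0242, limma), and that between 24 and 12 months was -1.71 (adjusted p = 0.0794), which did not pass. It was 1.83 within slide 1 and 2.38 within slide 3. The call was lost on leaving out 6 of the 9 animals, with an adjusted p of up to 0.113 (without 12-month animal 2).

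The array carries a pair of Zbtb16 probes, printed because they answered unequally. The first lies at chr8:51953559-51953618 and is the one reported above, and the second lies 156758 bases further on at chr8:52110317-52110376, both in rn3. No annotation of that build was used here, so the exons they fall in are not given.
Zbtb16 first probe: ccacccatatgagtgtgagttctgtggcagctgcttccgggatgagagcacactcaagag
Zbtb16 second probe: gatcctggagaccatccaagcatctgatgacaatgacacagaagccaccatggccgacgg

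The second probe read -4.81, -4.81 and -4.94 at 3 months and -4.37, -3.43 and -4.05 at 12 months, a difference of 0.90 ± 0.26 that did not pass (adjusted p = 0.437 over all kept probes), though the groups did not overlap. Beside the first probe lie 3 unnamed probes among the 48 called items, 5382, 7611 and 7944 bases from it. The nearest, at chr8:51948177-51948236, rose from -1.76, -1.02 and -1.71 to 0.24, 0.47 and 0.50 and stood at -1.03, -1.01 and -1.25 at 24 months. The other two, at chr8:51945948-51946007 and chr8:51945615-51945674, rose by 1.87 ± 0.21 and 1.81 ± 0.21. In each of these 4 neighbouring probes 3-month animal 2 was the highest of the young animals and all 12-month animals were above it. The probe at 51945948 is listed in the opposite orientation to the others. Further out, Nnmt, at 62914 bases, differed by 0.52 ± 0.38 with overlapping groups, and probes of Rbm7 and Rexo2 differed by 0.11 or less.

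**Figure D4:**
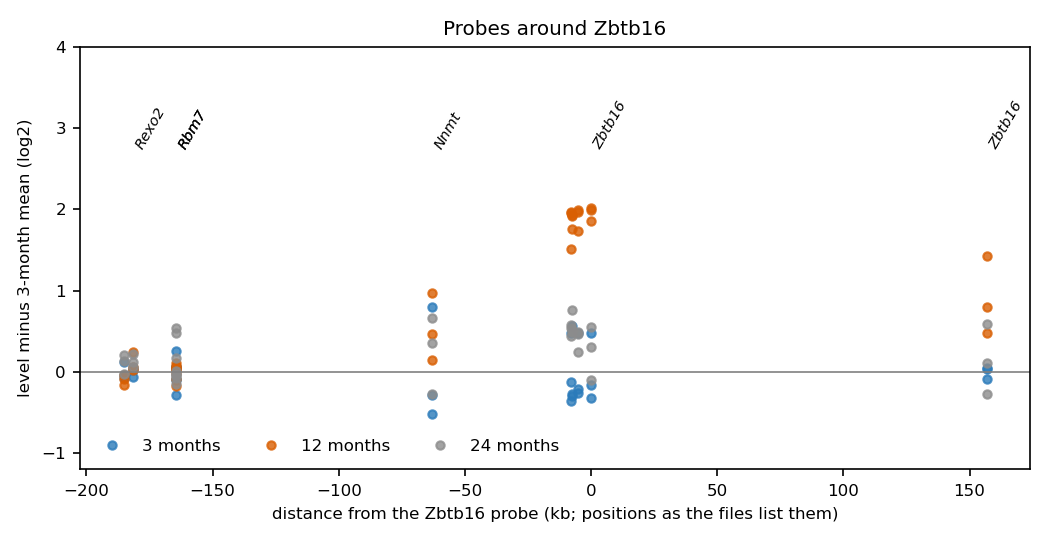
Levels of kept probes around Zbtb16 minus their own 3-month mean (log2, vertical axis) against distance from the first Zbtb16 probe in kilobases (horizontal axis), 1 point per animal. Orange points of 12 months stand near 2 at the first Zbtb16 probe and at 3 unnamed probes within 8 kb of it, where blue 3-month and grey 24-month points lie below 0.8.

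Of 24 glucocorticoid-responsive genes tested, 1 rose (Zbtb16), none fell, 2 were higher and 5 lower at the unadjusted threshold, and the median was -0.20 (-0.13 without 12-month animal 1). Fkbp5, a chaperone of the glucocorticoid receptor and a common target of it, read 1.05, 1.30 and 0.98 against 1.71, 2.05 and 1.75 (0.72 ± 0.15, adjusted p = 0.194). Its other probes gave 0.61 ± 0.33 and 0.47 ± 0.13. Dusp1, a phosphatase that both glucocorticoids and neuronal activity induce, read 0.78, -0.65 and -0.50 at 3 months and -1.30, -1.10 and -1.13 at 12 months (-1.05 ± 0.36, adjusted p = 0.58), with 3-month animal 1 far above the others.

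The young animals varied widely in activity-linked genes, and 3-month animal 1 stood apart in fibroblast genes. For 29 immediate early genes, none of which passed, the list's median by animal was 0.43, -0.51 and -0.05 at 3 months and -0.19, -0.26 and -0.14 at 12 months. The median difference of -0.25 was -0.06 without 3-month animal 1 and -0.40 without 3-month animal 2. Dusp1 and the kinase Sik1 (-0.86 ± 0.30, adjusted p = 0.599) had its smallest p-values. Leptomeningeal and perivascular fibroblast markers (17 tested, none passed, all 17 negative) stood at 0.68, -0.38 and -0.26 at 3 months and at -0.63, -0.56 and -0.33 at 12 months. Their median difference of -0.57 was -0.20 without 3-month animal 1. Lum, the proteoglycan lumican, was more even, at -3.47, -3.66 and -3.73 against -4.25, -4.38 and -4.09 (-0.62 ± 0.10, adjusted p = 0.0712), and Igf2, made by meninges and vessels, read 3.57, 2.47 and 2.63 against 1.98, 1.71 and 2.14 (-0.95 ± 0.28, adjusted p = 0.456). Of 45 collagens, laminins and matrix glycoproteins none passed, 11 were lower and 1 higher at the unadjusted threshold, and the median was -0.18. Without 3-month animal 1 that median was -0.08. The basement membrane genes Nid2 (-0.54 ± 0.09, adjusted p = 0.104) and Fbln2 (-0.49 ± 0.11, adjusted p = 0.216) had its smallest p-values. The part of meninges or vessels included in the punches was not tested.

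Casr, Igf2bp2, Rras2 and Defa24 were the remaining named genes that fell. Casr, the extracellular calcium-sensing receptor, showed the largest fall to pass, from -3.13, -3.10 and -2.90 to -4.65, -4.46 and -4.37 (-1.45 ± 0.13, 2.73-fold, adjusted p = 0.00849, limma). It was -1.59 within slide 1 and -1.37 within slide 3, but with slide as a block its adjusted p was 0.0852, and with normexp correction the difference was -0.68 (adjusted p = 0.121). Igf2bp2, an mRNA-binding protein of growing and progenitor cells, fell from -1.81, -2.15 and -2.02 to -3.34, -3.30 and -3.14 (-1.27 ± 0.10, adjusted p = 0.00825) and read -3.89 ± 0.08 (SD, n = 3) at 24 months. It was the only gene of 30 in the list of neurite growth and developmental neuron genes to pass. The others included Tubb3, a neuronal tubulin, at 0.25 ± 0.13 (adjusted p = 0.864), and the list's median was -0.02. Leaving out 12-month animal 2 took Casr to an adjusted p of 0.0693 and Igf2bp2 to 0.0673, their highest leave-one-out values.

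Rras2, a Ras-family GTPase, fell by 0.79 on the log2 scale (SE 0.10, adjusted p = 0.0348), from -1.38, -1.35 and -1.26 to -2.09, -2.31 and -1.94. An overlapping second probe gave -0.81 ± 0.12 and did not pass on its own (adjusted p = 0.0601 over all kept probes, limma). The Rras2 call was lost whichever animal was left out, with adjusted p-values of up to 0.167 (without 3-month animal 3, limma). Defa24, a defensin that the array lists as Defcr4, was above background on all 4 young arrays and on 2 of 4 at 12 months. The filter thus kept it through the 3-month and 24-month arrays, where it was higher. It fell by 1.14 on the log2 scale (SE 0.13, adjusted p = 0.0242), but its fold is a bound, at least 2.10-fold lower. With slide as a block its difference was -1.07 ± 0.51 (adjusted p = 0.981). Within slide 3 it was -0.81 and with normexp correction -0.33, both under that bound on the log2 scale. A pair of genes chosen after their values were seen did not pass. Capn6, a calpain without protease activity, read -4.67, -4.87 and -5.12 against -6.72, -7.03 and -6.24 (adjusted p = 0.172), with 1 of 4 arrays of 12 months above background, so its fold is a bound, at least 2.34-fold lower. The filter kept Capn6 through the 3-month arrays alone. On the log2 scale its difference was -0.81 within slide 3 and -0.43 with normexp correction, both under that bound. Ceacam4, a carcinoembryonic antigen family member listed as Ceacam10, differed by -1.35 ± 0.23 (adjusted p = 0.104), and by -0.86 with normexp correction.

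**Figure D5:**
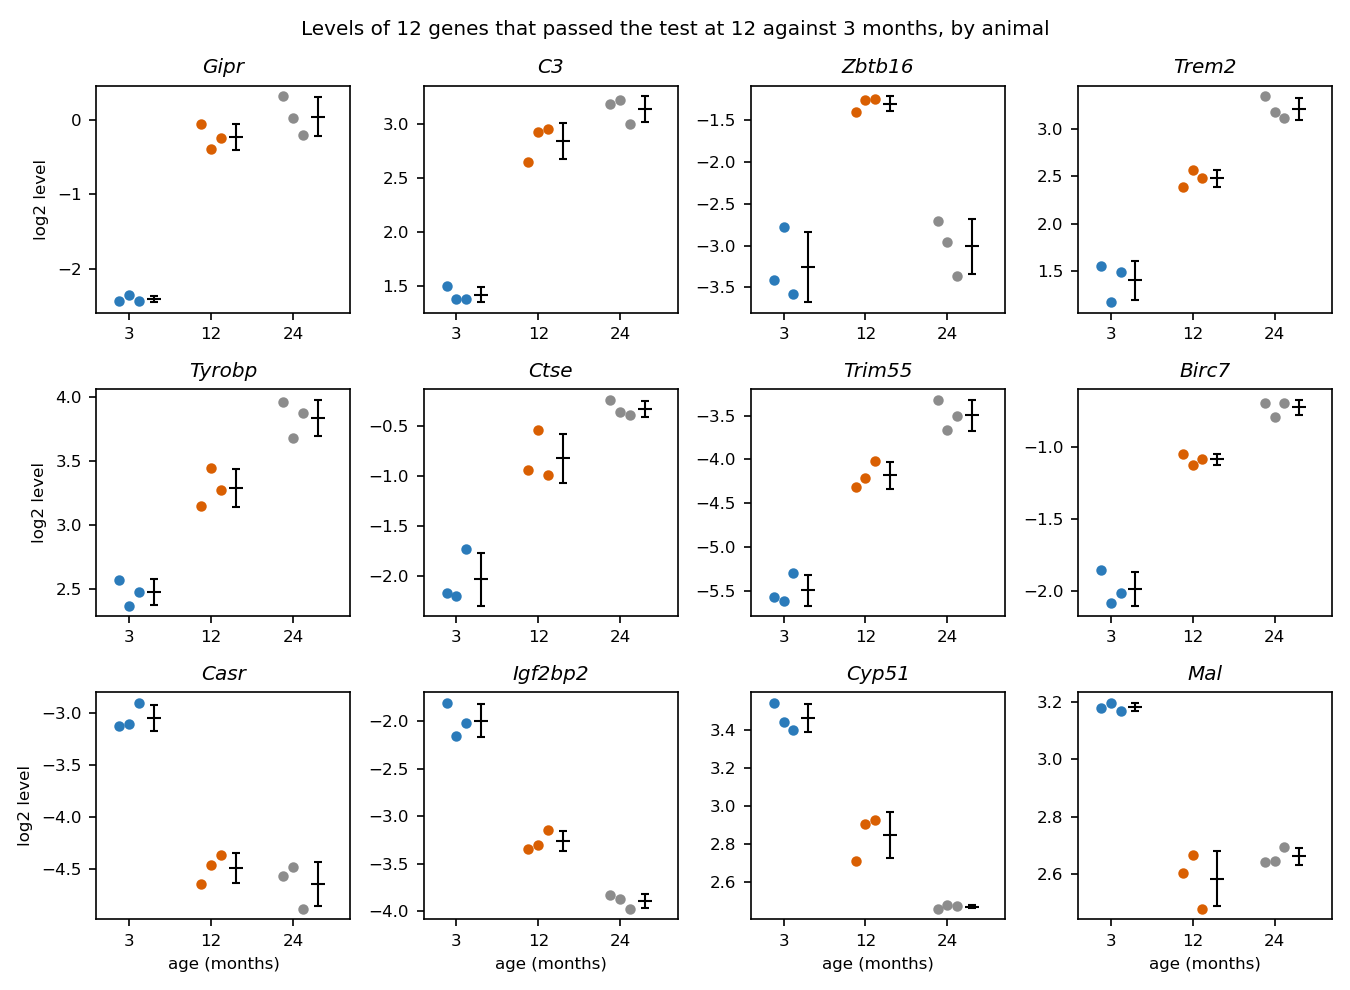
Levels of 12 genes that passed the test, 1 dot per animal (log2 processed signal minus the array's 75th percentile), at 3, 12 and 24 months, with the mean and SD of each group (n = 3) beside the dots. Vertical axes differ between genes and do not start at 0; in each panel the 12-month dots are separate from the 3-month dots, and for Zbtb16 alone of the 12 the 24-month dots overlap those of 3 months.

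The remaining rises belonged to no single list. Trim55, a RING finger protein best known from muscle sarcomeres, rose from -5.57, -5.61 and -5.29 to -4.31, -4.22 and -4.02 (1.31 ± 0.13, adjusted p = 0.0147). With normexp correction it was 0.37 (adjusted p = 0.588), so the size of this dim probe's change depended on the background estimate. Birc7, an inhibitor of apoptosis, rose from -1.85, -2.08 and -2.01 to -1.05, -1.12 and -1.08 (0.90 ± 0.08, adjusted p = 0.00849). Its 12-month animals had an SD of 0.04. Sema3b, a secreted semaphorin that repels axons, rose by 0.92 ± 0.10 (adjusted p = 0.0239), and its second probe also passed (0.73 ± 0.10, adjusted p = 0.0392 over all kept probes). Rai14, an actin-binding ankyrin-repeat protein, rose by 1.11 ± 0.16 (adjusted p = 0.0481), from -4.00, -4.08 and -3.80 to -3.21, -2.51 and -2.82. The sodium-proton exchanger Slc9a3 rose by 1.02 ± 0.15 (adjusted p = 0.0481). With normexp correction Rai14 and Slc9a3 differed by 0.48 and 0.62 and did not pass.

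The mitotic checkpoint kinase Ttk rose by 0.71 ± 0.10 (adjusted p = 0.0468), the only one of 26 cell cycle genes to pass. That list had 1 gene higher and 3 lower at the unadjusted threshold and a median of -0.06, and the ubiquitin-conjugating enzyme Ube2c of mitosis differed by -0.48 ± 0.13 (adjusted p = 0.362). The predicted locus RGD1309108 rose from -3.83, -3.37 and -4.31 to -2.07, -2.06 and -1.95 (1.81 ± 0.20, adjusted p = 0.0214). A set of 3 further named genes passed without being among the largest: Pou3f1, a POU-domain transcription factor (0.80 ± 0.10, adjusted p = 0.0348), Cml3, a camello-like acetyltransferase (0.89 ± 0.12, adjusted p = 0.0433), and Ass1, which makes argininosuccinate for arginine supply (0.60 ± 0.09, adjusted p = 0.0493). Pou3f1 read -3.87, -4.15 and -3.90 at 3 months, -3.30, -3.20 and -3.01 at 12 months and -1.94, -1.85 and -1.91 at 24 months. It was the only item of the 25443 (0.00393%) to pass between 24 and 12 months (1.27, adjusted p = 0.0241). With normexp correction the differences between 12 and 3 months were 0.36 for Ttk, 0.33 for Pou3f1 and 1.11 for RGD1309108.

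Among neuronal lists few genes passed. Catecholamine neuron genes (16 tested) had a median of -0.09, and Qdpr, described above, was the only one to pass; the vesicular monoamine transporter Slc18a2 differed by -0.38 ± 0.16 (adjusted p = 0.741). Clock genes (20 tested, none passed) had a median of -0.04: Nfil3, a clock-output repressor, differed by -0.80 ± 0.21 (adjusted p = 0.328) and Per2 by 0.28 ± 0.09 (adjusted p = 0.487). Cholinergic and motor neuron genes (11 tested, none passed, all 11 positive) varied mainly between animals. Their medians were 0.18, -0.81 and 0.66 at 3 months and 0.88, 1.27 and 0.06 at 12 months, so the groups overlapped, and the median difference of 0.79 was -0.50 within slide 3. Chat, which makes acetylcholine, read -4.30, -4.86 and -3.40 against -3.00, -2.92 and -4.21, peripherin (Prph) differed by 0.63 ± 0.36 and the vesicular acetylcholine transporter Slc18a3 by 1.01 ± 0.63 (adjusted p = 0.909 and 0.933). Over the 57 lists examined, 33 had a median within 0.1 of 0 and 47 had no member that passed, among them those of glutamate and GABA transmission, ion channels, the renin-angiotensin system, mitochondrial respiration and the ribosome.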

How the data were processed

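Agilent Feature Extraction 9.5.1.1 made the deposited intensity values, per the file headers: processed signals are background-subtracted and detrended within each array, annotated on the rn3 build. The deposited series value table holds score values, which tracked log10 of those signals with slopes of 1.005 to 1.04 per array (column medians -0.0442 to -0.0147). Its log base stays unknown, and its differences were put on a log2 scale as if log10. From the deposited intensities, levels were computed as log2 signal minus the array's 75th percentile over non-control spots. The deposited flags of outlier spots and of spots well above background (coded other) were used as filters.

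Outlier spots were left out, spots of a probe and the arrays of an animal were averaged, and limma 3.58.1 (R 4.3.3) was fitted to all 9 animals, two-sided. No spot was saturated. The number of arrays limits the precision. Nothing says more of the animals than that they are biological replicates. Symbols came from the RefSeq gene table (GRCr8) by accession for 10735 probes, a listed accession for 67, symbol for 5563 and synonym for 3718; 3379 kept the file's name and 17550 had none.

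Genes named were the 15 largest rises and falls that passed without overlap (falls were filled up to 10 with those of smallest p that did not pass, such as Lum), the region genes, and from each list described every member that passed and the 2 of smallest p. P2ry12, Adgre1, C1qa, Itgam, Olfml3, Slc18a3, Idi1, Hmgcs1, Capn6, Ceacam4, Pou3f1, Cml3, Ass1, RGD1309108 and the probes near Zbtb16 were chosen after their values were seen. A few genes that this rule or later choice named are not reported here. Members and lists were chosen with earlier results of these data known. Alternatives covered background correction, scaling, filters, probe choice, slide, replicate arrays, replicate block and leaving out each animal.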

Additional observations from a re-analysis of the deposited data

How the results depend on the processing

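All values here are from limma. Against 38 higher and 10 lower items, normexp background correction gave 18 and 3. No filter on dim probes gave 3 (Gipr, C3, Birc7) and 2 (Casr, Igf2bp2) over 35937 items tested, and the 6 compared animals alone gave 2 and 1. A fit to the 12 single arrays, animal as random effect, gave 60 and 17, and the same fit with slide as a block gave 23 and 5. The series value table gave 24 higher, the second technical array alone 24 higher and the first alone 6 lower. Leaving out 1 animal gave between 2 and 19 higher and between 0 and 6 lower, the fewest without 12-month animal 1 or 2 (2 and 0 in both cases), with 872 and 658 higher and 927 and 734 lower at an unadjusted p of 0.05. The other alternatives run (quantile normalization, median scaling, the percentile over detected probes, a stricter filter, outlier spots kept, the mean of a gene's probes, a trended robust fit) gave 26 to 49 higher and 9 to 12 lower. None of the 48 called items changed direction in any alternative. They were selected for small p-values in these same animals, so the alternatives could hardly reverse them, and this is no independent support.

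Replicate numbers are shared by both ages. Deviations from the age mean correlated by -0.08, -0.16 and -0.41 between same-numbered animals (numbers 1, 2 and 3) and by -0.09 to 0.26 between others. Within an age these deviations cancel out, so the correlations are tied together and cannot decide whether the numbers pair animals. With the replicate block 7 items were higher (Gipr, C3, Trim55, Birc7, Lilrb2 and 2 unnamed probes near Zbtb16) and 1 lower (Igf2bp2).

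Among genes that did not pass, small differences changed sign: Ifi44l was -0.0495 and Slc17a6 0.0034 with slide as a block, and on leaving out 1 animal Th ran from -0.1858 to 0.0391 (0.0187 without 3-month animal 3, the highest without 12-month animal 3) and Slc17a6 from -0.0913 to 0.0657 (0.0521 without 12-month animal 1, the highest without 3-month animal 2). With 3 animals per age, dim probes carried the largest changes between background corrections. The cause of these shifts was not tested.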
